A study of Mus musculus with 3 samples.

Results

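The promoters described here are those of mouse genes that the viewpoint list of the capture gives under a provisional name. A viewpoint, the DpnII fragment that a pair of capture probes was made to pull down, was taken when its name in the viewpoint list held 1 gene and that name ended in Rik or was Gm followed by digits. Viewpoints on the X chromosome and names listed more than once were left out. The rule gave 127 viewpoints of 126 genes (115 Rik viewpoints and 12 Gm viewpoints) of 7197 listed, and 2010111I01Rik had a pair of them. The remaining single-gene autosomal viewpoints, 5865 in all, stand beside them throughout as a description.

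The libraries came from F1 hybrids of C57BL/6 and CBA/J mice that were given phenylhydrazine at 40 mg per g body weight per dose, as the labels state it, in 3 doses 12 h apart, and were killed on day 5. Phenylhydrazine destroys red cells, and the spleen fills with erythroid precursors, from which ter119-selected cells (CD71+ ter119+) were taken. There were 3 libraries in 1 group and no control, made with NuTi Capture-C, in which crosslinked chromatin is cut with DpnII, ligated in nuclei and enriched for ligation products of the viewpoints. Contacts do not measure expression, so the labelled cell type was not checked by markers, and nothing in the labels says whether the libraries came from separate animals.

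Rik names were given to cDNA clones of the RIKEN collection for which no function was known, and Gm names to gene models predicted from the genome sequence. Some of these genes have since been given names, some are long non-coding RNAs, and some predicted models are copies of other genes lying close by in clusters. A promoter meets its neighbourhood by a frequency that falls with distance, and contacts with enhancers and other promoters stand above that decay. Where a promoter has a near-identical copy nearby, reads from one copy can be placed at the other, so that apparent contacts between copies are uncertain.

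The measurement was the number of unique ligations that joined a viewpoint to some other DpnII fragment of its chromosome (cis events). The value columns carried no names, so that the letters a, b and c follow their order. They held 18230099, 34428035 and 34233560 cis events over all viewpoints. Between libraries b and c, the counts of the Rik and Gm viewpoints summed over distance ranges differed by less than the sampling noise. Over 6 distance ranges of 120 viewpoints, chi-square per degree of freedom was 0.911 for this pair. The value was 5.86 between a and b and 5.94 between a and c. By single fragment the library pairs were alike. From 100 kb to 1 Mb the value was 1.04 for b and c, 1.06 for a and b and 1.05 for a and c. On the values over distance ranges, libraries b and c were averaged and counted as 1 sample, and every mean ± SD below has n = 2. Such an SD leaves out the spread between b and c, and can be smaller than that of the 3 libraries. Targeted fragments are not listed as contacts, so contacts between promoters were seen only through neighbouring fragments. Coordinates refer to mm9 and are 1-based.

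Because many of the strongest contacts of these promoters lay at fragments with nearly the same sequence, examples from 4 of them are shown first. Those of Gm5885 and C130026I21Rik, and the stronger contact of Gm3404, lie in fragments that overlap annotated untranslated regions and are described by their identity only. In each pair the capitals mark the longest stretch that is identical in the viewpoint and in the contacted fragment (for Gm5141 the first 120 of 151 identical bases), and a minus strand is printed as its reverse complement.
Gm5141 viewpoint, chr13:62887111-62887230, plus strand: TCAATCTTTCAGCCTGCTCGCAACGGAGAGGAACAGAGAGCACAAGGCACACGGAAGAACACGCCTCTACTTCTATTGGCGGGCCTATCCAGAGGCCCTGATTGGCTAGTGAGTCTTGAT
Gm5141 contact, chr13:62786263-62786382, plus strand: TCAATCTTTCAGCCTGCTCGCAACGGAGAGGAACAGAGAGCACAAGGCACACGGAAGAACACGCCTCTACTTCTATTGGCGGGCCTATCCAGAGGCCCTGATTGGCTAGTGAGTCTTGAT
Gm3604 viewpoint, chr13:62484558-62484673, plus strand: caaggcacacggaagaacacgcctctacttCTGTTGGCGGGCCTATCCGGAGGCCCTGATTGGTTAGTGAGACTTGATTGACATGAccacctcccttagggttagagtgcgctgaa
Gm3604 contact, chr13:61905532-61905647, minus strand: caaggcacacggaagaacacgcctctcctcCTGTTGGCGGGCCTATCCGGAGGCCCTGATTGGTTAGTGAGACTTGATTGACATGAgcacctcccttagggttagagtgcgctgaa
Gm3404 viewpoint, chr5:147337613-147337651, plus strand: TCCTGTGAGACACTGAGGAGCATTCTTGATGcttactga
Gm3404 contact, chr5:146996600-146996638, minus strand: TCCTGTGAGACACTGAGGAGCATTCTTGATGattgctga
Gm11544 viewpoint, chr11:94710658-94710694, plus strand: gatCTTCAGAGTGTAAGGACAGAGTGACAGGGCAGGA
Gm11544 contact, chr11:94678715-94678751, plus strand: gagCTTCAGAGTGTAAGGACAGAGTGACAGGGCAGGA

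For Gm11544 and Gm3404 the shared stretches also lay in the designed probes, which are 70 bases long and sit at the ends of the viewpoint. At Gm5885 the right probe held 68 bases identical to a called fragment, at C130026I21Rik the probes held 67 and 68, and the left probe of Gm3404 held 61. The probes of Gm5141 and Gm3604 were not analysed here. The same 34 bases of Gm11544 and the same 31 bases of Gm3404 are in capitals in the probes below, and both probes equal the mm9 sequence at their place.
Gm11544 left probe, chr11:94710658-94710727: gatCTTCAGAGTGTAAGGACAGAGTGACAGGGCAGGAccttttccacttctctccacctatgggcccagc
Gm3404 right probe, chr5:147337584-147337653: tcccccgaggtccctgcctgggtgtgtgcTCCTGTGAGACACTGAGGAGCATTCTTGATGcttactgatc

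Most of the genes are still known by the names in the list. RefSeq held 92 of the 127 viewpoints under the same symbol and the remaining 35 (34 genes) through a synonym. Among the renamed genes are 3110043O21Rik, now C9orf72, whose repeat expansion causes motor neuron disease in humans, 1110037F02Rik, now Virma, a subunit of the RNA m6A methylation complex, and A230046K03Rik, now Washc4, a subunit of the WASH complex on endosomes. The biotype in RefSeq was protein coding for 111 viewpoints and lncRNA for 16. In the GENCODE annotation of mm9, 103 were protein coding, 8 lincRNA, 4 processed transcripts and 2 pseudogenes, and 10 names had no entry. The viewpoint held the annotated start of its own gene in 110 cases and the start of another gene in 12. Among the viewpoints with a called fragment described below, Gm3604, 6720489N17Rik, Gm6712 and Gm11544 did not hold the annotated start of their own gene, and Gm5885 and Gm5141 had no entry, so that these 6 are promoters by the viewpoint list only. The viewpoints lay on 19 chromosomes, with at most 11 on 1 chromosome.

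The Rik and Gm viewpoints had a median length of 806 bp, against 740 bp for other single-gene viewpoints. Their median GC content was 57.0% against 59.1%, and their median ratio of observed to expected CpG was 0.706 against 0.752. The 12 Gm viewpoints lay apart from the 115 Rik viewpoints, with medians of 339 bp, 51.5% GC and a CpG ratio of 0.387. Low CpG ratios are a feature of promoters outside CpG islands. The longest viewpoints were 2310007B03Rik (now Mab21l4) at 2602 bp, A430005L14Rik at 2462 bp and Gm13286 at 1960 bp. The shortest were Gm15133 at 85 bp and A230020J21Rik and 2410002F23Rik at 150 bp each.

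All 127 viewpoints had contacts, and 120 had the 1000 cis events asked of a viewpoint for the analyses by fragment. The median depth was 6569 cis events over the 3 libraries (quartiles 3480 and 11692), against 6069 for other single-gene viewpoints. By library the medians were 1304, 2489 and 2464 events in a, b and c, against 1286, 2394 and 2360. The ratio of the medians was 1.08 in the sum and 1.03 ± 0.0197 by library, and was thus close to 1 in all 3. Gm viewpoints had a median of 15951 events and Rik viewpoints 6377.

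The deepest viewpoint was that of A630076J17Rik, with 30568 events in library a, 59472 in b and 59117 in c. It was followed by 1700017B05Rik with 115721 events in the sum, 2310007B03Rik with 109653, 1190002N15Rik (now Dipk2a) with 101935 and Gm14092 with 95977. The 1700017B05Rik and 1190002N15Rik promoters lie on chromosome 9. The shallowest was the promoter of the lncRNA 1700018L02Rik, with 42, 64 and 55 events. Next came 2010107E04Rik (now Atp5mpl, a small protein of the mitochondrial ATP synthase) with 316 events in the sum, 1600002K03Rik with 452, 2510002D24Rik with 465 and 2810021J22Rik with 562. Library a was the lowest of the 3 at each of these 10 promoters, as it was in total depth.

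**Figure D1:**
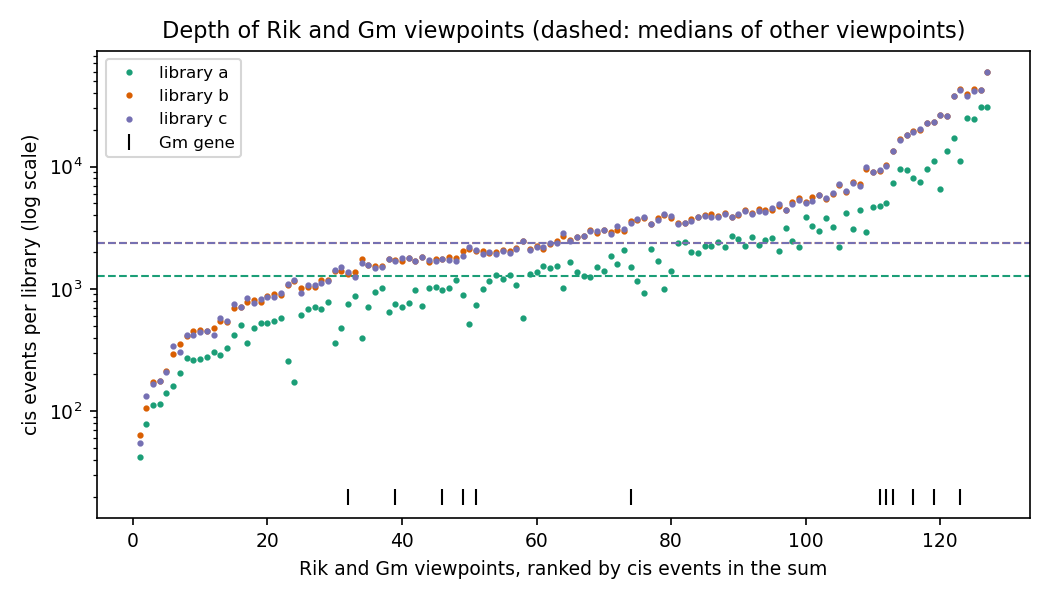
Cis events per library (log scale) of the 127 Rik and Gm viewpoints, ranked by their sum, with 1 dot per library, dashed lines at the medians of other single-gene viewpoints and ticks marking the 12 Gm viewpoints. Dots run from 42 events at 1700018L02Rik to 59472 at A630076J17Rik, and 6 of the 12 Gm ticks stand among the deepest 20 viewpoints.

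The share of cis events from 2.5 kb to 1 Mb, called the local share, had a median of 42.3% over the 120 tested viewpoints. The median of other single-gene viewpoints was 42.6%, and the difference was -0.296 ± 0.279 percentage points by library, about the size of its own error. It was -0.0514 points without library a, -0.348 without b and -0.525 without c. It was -3.39 points with events pooled over viewpoints and -2.31 points among viewpoints with at least 5000 events, so its size varied with the measure and the viewpoints taken. The local share was a median of 42.9% at Rik viewpoints and 36.7% at Gm viewpoints. Contacts over 10 Mb away took a median of 34.9% of events at Rik and Gm viewpoints and 33.9% at the others.

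The lowest local share was that of C130026I21Rik, at 14.2% in library a, 11.5% in b and 11.4% in c. Over 10 Mb away lay 63.9% of its events. The next lowest were 1190002N15Rik at 17.4% and 1190003K10Rik (now Fam240b) at 22.3%. The highest local shares were those of 2310011J03Rik at 65.6%, Gm21992 at 65.2% and 2810428I15Rik (now Rex1bd) at 65.2%, so the range of the 120 promoters was wide beside the difference between the medians. Library a gave the highest local share of the 3 libraries at all 6 of these promoters. The Gm21992 viewpoint held the annotated start of Rbm14, and Gm21992 itself had no entry in GENCODE.

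Contacts of most promoters were spread over both sides. For the 111 viewpoints with an annotated strand, a median of 50.7% of events from 2.5 kb to 1 Mb lay upstream of the gene, against 49.0% for 4970 other viewpoints. By library the median upstream share was 50.8%, 51.1% and 50.4%. The most one-sided promoters towards lower coordinates were Gm5885, with 87.6% of these events on that side, C130026I21Rik with 84.6% and Gm5141 with 78.9%. At C130026I21Rik the table listed 1899 fragments on the lower side and 149 on the upper side, and at Gm5885 and Gm5141 single fragments described below held much of the signal. The most one-sided towards higher coordinates were 2610301B20Rik, with 19.1% on the lower side, 2410002F23Rik with 24.9% and 1190007I07Rik with 26.3%.

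Contact frequency per fragment fell with distance at a similar rate in Rik and other promoters. From 10 kb to 1 Mb the slope of log frequency on log distance was -0.843 ± 0.0272 at Rik viewpoints, -0.771 ± 0.00389 at Gm viewpoints and -0.871 ± 0.0294 at other single-gene viewpoints. Within each library the Rik slope was slightly shallower, at -0.862, -0.824 and -0.823 in a, b and c, against -0.891, -0.851 and -0.849 at the others. The Gm curve lay below the Rik curve over most of the range and had a pair of spikes, at the single fragments of Gm5141 and Gm5885. Both the Gm slope and the Gm curve include those fragments. Each curve is a share of the events in range, so large counts at single fragments lower the rest of it. Across fragments of a viewpoint, the squared Pearson correlation between libraries had a median of 0.312 (a with b), 0.313 (a with c) and 0.416 (b with c). The values for other viewpoints were 0.289, 0.292 and 0.368. In 5 kb bins the mean of the 3 medians rose to 0.838, against 0.824. These correlations are across fragments, which share a viewpoint, a depth and the distance decay.

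**Figure D2:**
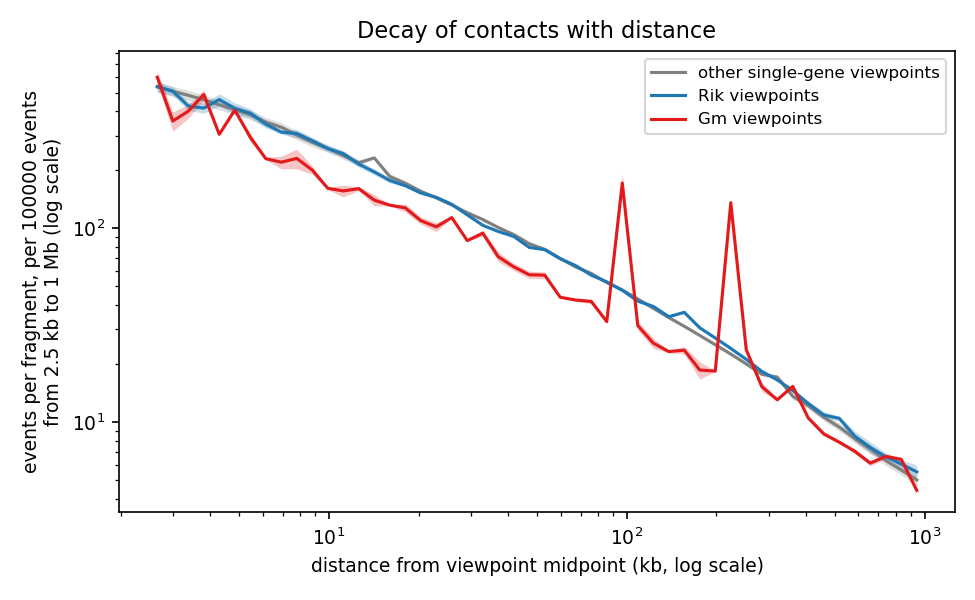
Cis events per fragment, as a share of the events of the viewpoint from 2.5 kb to 1 Mb, against distance in kb (both axes on a log scale), for 108 Rik, 12 Gm and 5446 other single-gene viewpoints, as lines at the mean of library a and the average of b and c, with bands between both values. The Rik and other curves run together, and the Gm curve lies lower apart from spikes near 101 kb (Gm5141) and 237 kb (Gm5885).

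To find single contacts above the decay, each of 28839794 viewpoint-fragment pairs was tested against the count expected at its distance in a negative binomial model, with adjustment over all pairs. A pair was called at an adjusted p under 0.05 with a count above expectation in each library. The p-values rest on the summed events, and the spread between libraries enters them only through that second condition. Of all pairs, 0.00086% were called, and of all 6718 viewpoints tested, 2.31% had a call. Among Rik and Gm viewpoints 25 pairs were called, at 10 of 120 promoters (8.33%), against 119 of 5446 other promoters (2.19%). The calls fell mostly on predicted genes: 7 of 12 Gm promoters held 18 of them, and 3 of 108 Rik promoters held 7. Of the 32 tested promoters whose genes RefSeq holds under another symbol, 0 had a call, and 1 had a call under the second estimate of dispersion given next. At the 2.31% of all viewpoints, few calls could fall among 32, and 10 of the 32 had a called 5 kb bin (described below). When the dispersion was estimated without the top 0.1% of counts, 65 pairs were called at 16 of the 120 promoters, the 25 among them, and 7.86% of all viewpoints had a call.

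Called pairs held identical sequence more often than uncalled pairs. A stretch of at least 30 bases identical to the viewpoint (on either strand) lay in the contacted fragment or across its edge in 9 of the 25 called pairs (36.0%). In 8 of these the fragment itself held 30 or more identical bases, and the other, at Gm6712, is described below. Counted in the same way, 16 (64.0%) had such a fragment within 5 fragments. Called pairs with a shared stretch stood at 7 of the 10 promoters with a call, and called pairs without one stood at all 10. Of the uncalled pairs of all tested Rik and Gm promoters, with or without a call, 0.207% shared such a stretch. Those pairs include the ones of the 95 promoters, counted below, that shared no sequence nearby. The share at only the promoters with a call is not given here, and the contrast there may be smaller. Among called pairs of other single-gene viewpoints the shares were 36.4% in the fragment and 52.9% within 5 fragments. With the second estimate of dispersion they were 29.2% and 55.4% for Rik and Gm viewpoints, and 12.4% and 29.6% for the others. Of the 127 promoters, 27 (21.3%) shared 30 bases with a place within 1 Mb, namely 8 of 12 Gm and 19 of 115 Rik promoters, against 16.8% of other promoters. At least 30% of all 30-base words recurred elsewhere in the genome for 10 promoters (7.87%), against 1.84% of others. Calls stood at 9 of the 25 tested promoters that shared sequence nearby (36.0%) and at 1 of the 95 that did not (1.05%). Among other single-gene promoters the counts were 71 of 904 (7.85%) and 48 of 4542 (1.06%), so without shared sequence the shares of both groups were nearly equal. Whether these events are contacts, reads placed at the wrong copy or copies captured directly by the probes was not tested.

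**Figure D3:**
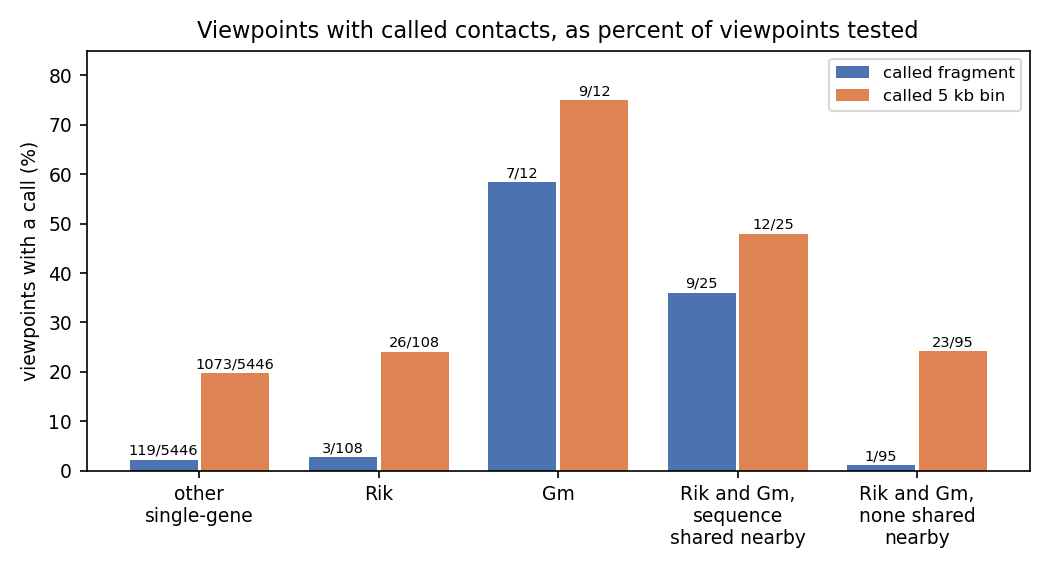
Percent of tested viewpoints with at least 1 called fragment (blue) or called 5 kb bin (orange), with the counts above the bars, for other single-gene, Rik and Gm viewpoints and for Rik and Gm viewpoints with and without sequence shared within 1 Mb. Called fragments stood at 9 of 25 promoters with shared sequence and 1 of 95 without, and called bins at 12 of 25 and 23 of 95.

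The strongest called contact was that of Gm5885 on chromosome 6. A fragment at chr6:133242155-133242355, in an exon of 5530400C23Rik 237 kb away, held 2487, 5654 and 5600 events in libraries a, b and c. That was 2460 ± 113 times the expected count and 55.2% of all events of Gm5885 in tested fragments. The adjusted p was 2.37e-15, and all 3 libraries lay above 2380 times the expectation. Viewpoint and fragment were identical at 99.0% of 200 aligned bases. A second called fragment of Gm5885 lay 238 kb away (20.2 ± 2.5 times the expectation).

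The 3 promoters Gm3604, 6720489N17Rik and Gm5141 lie within 403 kb of each other on chromosome 13 and resemble each other. Over 228 aligned bases, their viewpoints were identical at 92.1% (Gm3604 and 6720489N17Rik), 93.0% (Gm3604 and Gm5141) and 91.7% (6720489N17Rik and Gm5141). The contact of Gm5141 printed above lay 101 kb away in no annotated gene and held 1055, 1882 and 1769 events, 735 ± 13.8 times the expectation (negative binomial adjusted p = 3.53e-14). It took 35.5% of the events of Gm5141, and the adjoining fragment of 51 bp stood at 201 ± 9.47 times. Its last called fragment, 561 kb away, held 9 events in each library. It was the fragment of 36 bp at chr13:62326462-62326497 that was also called for Gm3604, 158 kb away, with 33, 56 and 54 events (76.8 ± 3.31 times).

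Of the 4 called fragments of Gm3604, the pair that shared sequence lay 579 and 353 kb away. The fragment 579 kb away overlapped an exon of AC159290.1 and held 11, 27 and 21 events (112 ± 9.44 times) and matched the viewpoint at 96.2% of 239 aligned bases. The fragment 353 kb away held 23, 50 and 46 events (137 ± 10.2 times) with 86.7% identity over 240 bases. In both, every library stood over 100 times above the expectation. The remaining call, 378 kb away, stood at 28.5 ± 0.272 times, and at 28.3, 20.9 and 36.4 times in libraries a, b and c. At 6720489N17Rik the called fragment lay 29.4 kb away with 14, 23 and 28 events (13.8 ± 0.503 times, negative binomial adjusted p = 0.0286), and it shared no stretch of 30 bases.

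C130026I21Rik had the most called fragments of any Rik promoter, 5 in number, all at lower coordinates and inside its own annotated gene. The strongest, at chr1:85105873-85106634, lay 161 kb away over an exon of A530032D15Rik and held 413, 810 and 789 events. That was 772 ± 110 times the expectation (negative binomial adjusted p = 3.7e-102), with 251 identical bases in a row and 99.6% identity over 254. The viewpoint of C130026I21Rik is 256 bp long, and 98.7% of its 30-base words recurred elsewhere in the genome. Its other 4 called fragments, 168 to 183 kb away, shared no such stretch and stood at 14.4 ± 1.06 to 20.6 ± 5.66 times, each with 8 to 15 events in every library.

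At Gm3404 on chromosome 5 all 3 called fragments lay in the gene Gm6309. The fragment 355 kb away held 51, 93 and 76 events (185 ± 32.0 times, negative binomial adjusted p = 5.84e-54) and matched the viewpoint at 95.7% of 646 aligned bases. The fragment of 39 bp printed above held 7, 21 and 21 events (34.5 ± 8.44 times), and another fragment 354 kb away stood at 16.7 ± 6.36 times. At Gm11544 the printed contact lay 32.3 kb away with 42, 61 and 54 events (82.2 ± 7.12 times, negative binomial adjusted p = 3.75e-09), and a second fragment 47.9 kb away stood at 14.5 ± 3.06 times. At Gm6712 on chromosome 17 the fragments lay 342 kb away in BC002059 (4, 12 and 9 events, 95.8 ± 8.23 times) and 289 kb away (3, 9 and 10 events, 61.9 ± 14.6 times). A stretch of 69 bases identical to the Gm6712 viewpoint ended at the DpnII site where the first of these fragments begins, with 2 of its bases inside.

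The promoter of Gm15133, a lncRNA, had a pair of adjoining called fragments 27.8 and 27.4 kb away in Trim34a and Trim5, genes of the tripartite motif family. They held 12, 32 and 35 events (21.2 ± 2.87 times, negative binomial adjusted p = 8.95e-06) and 23, 49 and 43 events (30.9 ± 3.04 times, negative binomial adjusted p = 0.0494). The longest stretch identical to the viewpoint was 29 bases in the second, just short of the 30 that were counted, within 81 bases at 93.8% identity. The Gm15133 viewpoint itself overlapped the annotated genes Trim12a, Trim34a and Trim34b, so Trim34a lay over both the viewpoint and the called fragments.

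**Figure D4:**
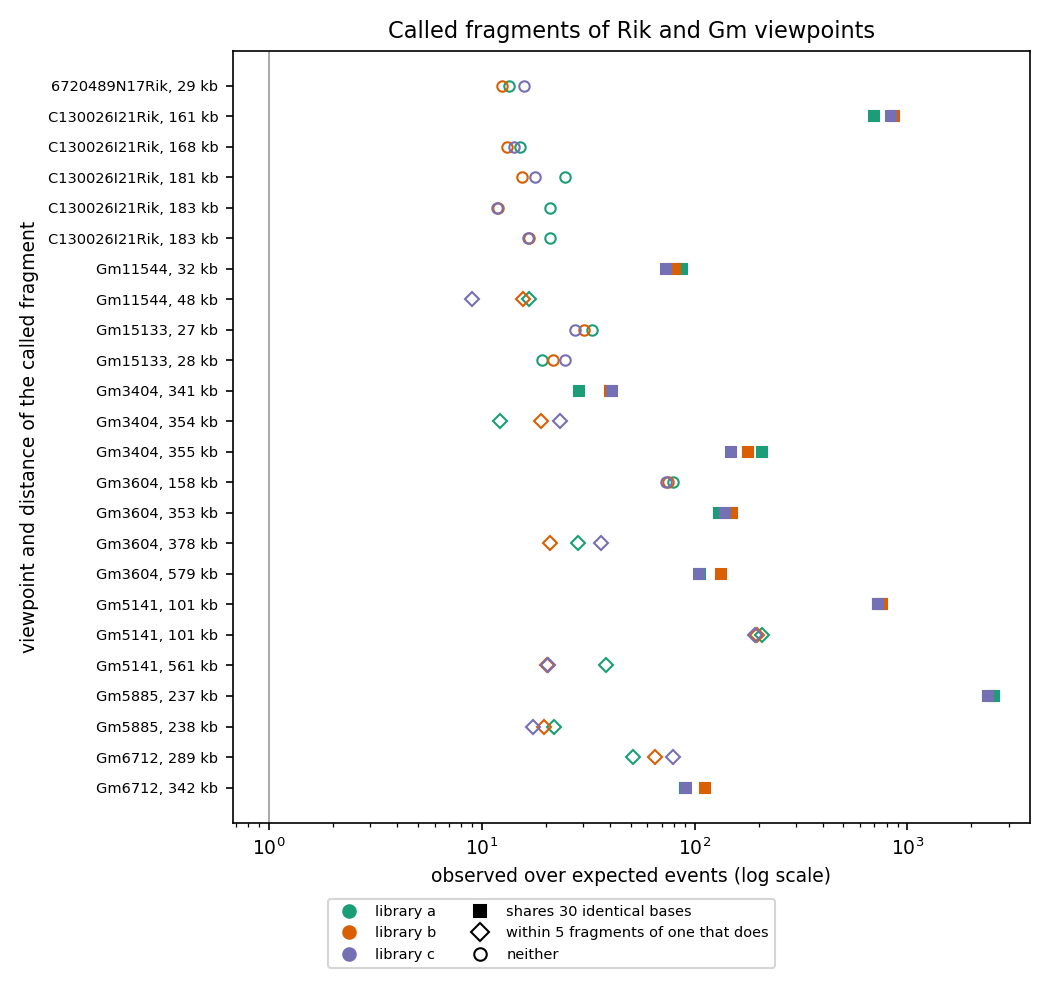
Observed over expected events (log scale) in libraries a, b and c for the 24 called fragments of the 9 Rik and Gm viewpoints that share sequence nearby, with the distance from the viewpoint in each label and the symbol showing shared sequence (for Gm6712 at 342 kb, across the fragment's edge). Values run from 9.04 in library c at Gm11544 to 2540 in library a at Gm5885, and the line at 1 marks the expectation.

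Counts were also summed into bins of 5 kb from 10 kb to 1 Mb, which raises the events per value. Of all bins 0.0949% were called, and 20.3% of all viewpoints had a called bin. Among Rik and Gm viewpoints 63 bins were called at 35 of 120 promoters (29.2%), against 19.7% of other single-gene promoters. Rik promoters with a called bin were 26 of 108 and Gm promoters 9 of 12. The count was 51 without library a, 41 without b and 36 without c. These calls leave the highest counts out of the dispersion, and with all counts in it 25 bins at 15 promoters were called, while 26 bins at 14 promoters passed an adjusted p under 0.01. The bins named below are from the 63. At promoters that shared no sequence nearby, 34 bins were called at 23 of 95, or 24.2%, against 19.1% of other promoters that shared none.

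The most called bins stood at C130026I21Rik, with 6 from 155 to 280 kb at lower coordinates, and at Gm3404, with 4 from 340 to 370 kb. Then 6 promoters had 3 each, namely Gm3604, Gm5885, Gm6712, 1190002N15Rik, E230016M11Rik and 4930430F08Rik. In the first 3 of these, 6 of the 9 bins shared sequence with the viewpoint. The bins of the last 3 shared none with theirs. E230016M11Rik, a lncRNA, had its bins 120 to 135 kb away in A430010J10Rik, the strongest with 32, 51 and 36 events (6.56 ± 1.15 times, negative binomial adjusted p = 0.000213). The other bins beside it stood at 4.30 ± 0.194 and 4.64 ± 0.187 times. The viewpoint of E230016M11Rik also overlapped the annotated gene Gadd45a.

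At 1190002N15Rik the called bins lay 965 to 980 kb away, at and beside the start of 2610101N10Rik. The middle bin held 24, 14 and 39 events (8.84 ± 1.80 times, negative binomial adjusted p = 0.0145), and the bins on either side stood at 7.01 ± 2.69 and 8.18 ± 1.17 times. By library the middle bin stood at 10.1, 3.84 and 11.3 times. At 4930430F08Rik the bins lay 90 to 110 kb away in Cep290, a gene of the primary cilium, and in Tmtc3. They stood at 3.88 ± 0.791 to 4.20 ± 0.721 times, with adjusted p from 0.023 to 0.047.

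Several promoters with 1 or 2 called bins reached genes with known roles, and these were chosen after their values were seen. A630001G21Rik contacted Sp110, a gene of the interferon response, 150 to 160 kb away, with 24, 47 and 26 events in one bin and 21, 44 and 44 in the next (5.98 ± 0.247 and 6.01 ± 1.14 times, negative binomial adjusted p of 0.00169 and 0.000458). 2410002F23Rik contacted the bin that holds the starts of Nr1h2, a sterol-sensing nuclear receptor, and Pold1, the catalytic subunit of DNA polymerase delta, with 9, 6 and 8 events against 1.49 expected in the sum (18.4 ± 8.22 times, negative binomial adjusted p = 1.32e-05). 2610301B20Rik had 7, 7 and 5 events at the start of Trp53inp1, a gene of the p53 response, 285 to 290 kb away (9.98 ± 4.10 times, negative binomial adjusted p = 0.0109). By library these bins stood between 4.24 and 24.2 times the expectation.

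B130034C11Rik, which had no entry in GENCODE, contacted Bach1, a repressor that is regulated by heme, with 17, 12 and 15 events 220 to 225 kb away (5.98 ± 2.60 times, negative binomial adjusted p = 0.0356). Its second called bin, 255 to 260 kb away without a gene, stood at 6.36 ± 0.770 times (negative binomial adjusted p = 0.0124). D930015E06Rik (now Tmem131l) had a pair of bins in Fhdc1, a formin family gene, 415 to 430 kb away (7.23 ± 0.465 and 7.37 ± 1.37 times). 1810022K09Rik (now Rbis, a factor of ribosome biogenesis) contacted Car2, the carbonic anhydrase that red cells hold in large amounts, with 1, 9 and 12 events (negative binomial adjusted p = 0.0464). Library a stood at 1.64 times the expectation there, b at 6.24 and c at 8.30, and the mean of 4.46 ± 3.98 times was little above its error. 3110002H16Rik (now Rmc1) contacted the start of Riok3, an atypical protein kinase, 35 to 40 kb away with 18, 28 and 33 events (4.01 ± 0.685 times, negative binomial adjusted p = 0.0103).

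Among other renamed genes with a called bin were 1110037F02Rik (Virma), with 4, 6 and 15 events in a bin without a gene 295 to 300 kb away, and A230046K03Rik (Washc4), with 1, 8 and 4 events in Txnrd1, the cytosolic thioredoxin reductase. At the latter the ratio ran from 3.66 in library a to 18.4 in b. Another called bin of A230046K03Rik, 560 to 565 kb away without a gene, held 4, 6 and 4 events (10.5 ± 1.98 times). At 2810403A07Rik (now Khdc4) the bin held the start of Gon4l (4.30 ± 0.473 times), and 1700021F05Rik (now Mtres1) and 5730508B09Rik (now Fam241a) had bins at 8.52 ± 3.28 and 3.22 ± 0.552 times. Gm15800 (now Hectd4) had a bin inside its own gene at 3.19 ± 0.613 times. Gm13286 had 16, 21 and 29 events at Gm13288, 50 to 55 kb away (6.79 ± 0.392 times, negative binomial adjusted p = 4.2e-06), and 52.3% of its 30-base words recurred elsewhere, though the called bin shared none. Gm14092, Gm17677 and Gm21992 were the Gm promoters without a called bin.

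**Figure D5:**
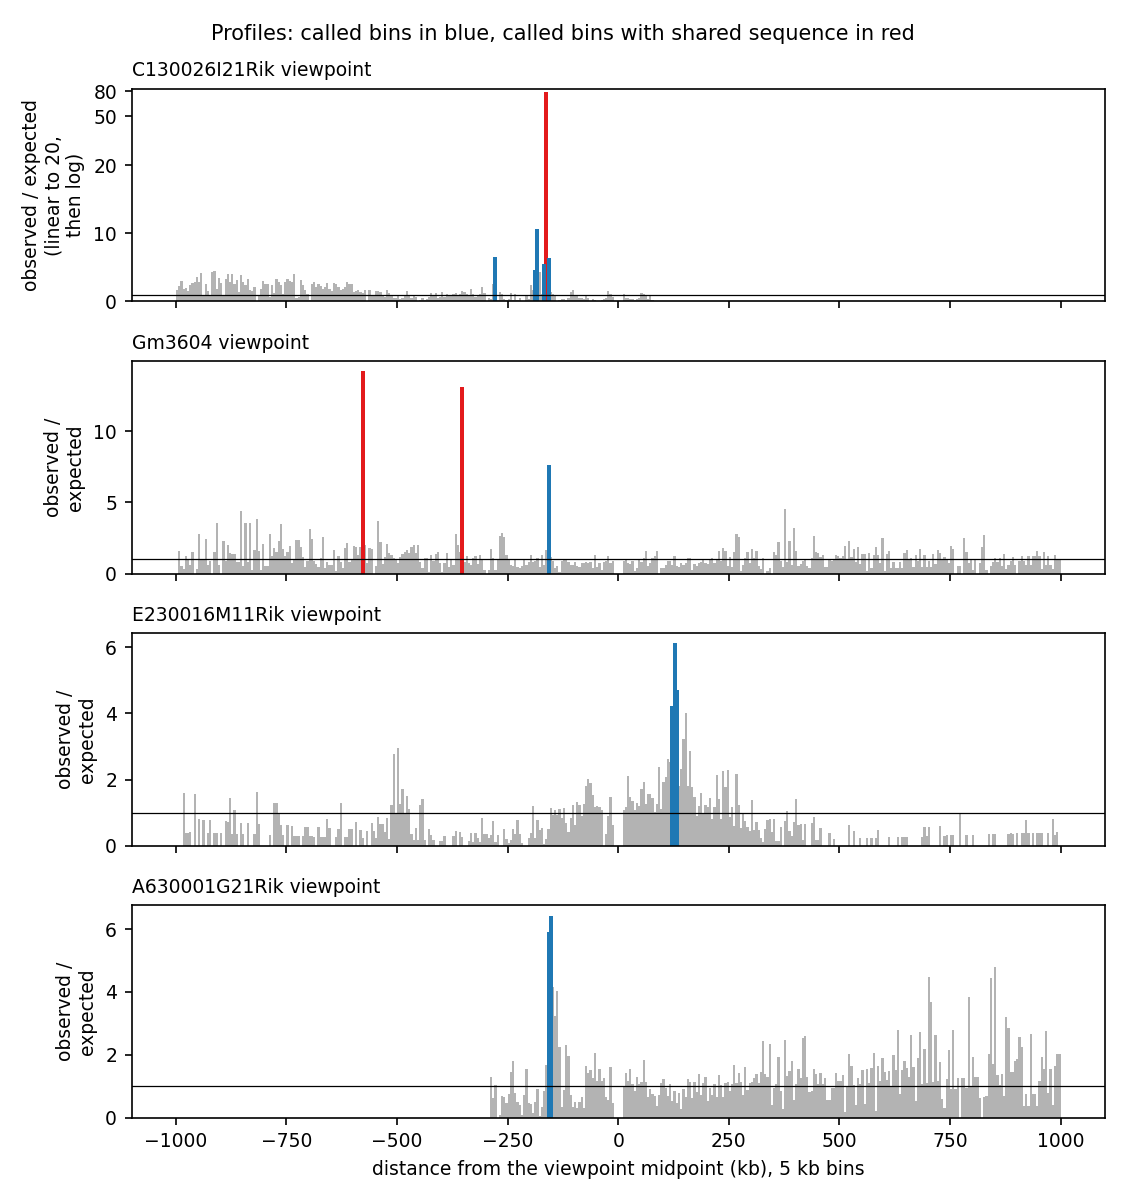
Observed over expected events of all libraries in 5 kb bins by distance from the viewpoint midpoint (negative: lower coordinates) for C130026I21Rik (axis linear to 20, then log), Gm3604, E230016M11Rik and A630001G21Rik, with called bins in blue and those with shared sequence in red. The called bins of E230016M11Rik (120 to 135 kb) and A630001G21Rik (150 to 160 kb) sit on broader rises, while those of Gm3604 are single bins.

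Since targeted fragments are not listed, contact with other promoters was read at fragments 1 to 2 places beside other viewpoints. There the Rik and Gm promoters had 9896 events at 5908 fragments, 1.20 ± 0.00536 times the count expected for their distances, and other single-gene promoters had 1.40 ± 0.0240 times. Among promoters that shared no sequence nearby, the ratios lay closer together, at 1.23 ± 0.000451 and 1.33 ± 0.0209. By library the former was 1.226, 1.236 and 1.218 in a, b and c. At the fragments directly beside other viewpoints (1 place) the ratios in the sum were 0.979 and 1.24, so the excess of Rik and Gm promoters was not seen there. By distance the ratio of Rik and Gm promoters was 0.636 ± 0.0360 from 2.5 to 10 kb, 1.02 ± 0.0249 to 50 kb, 1.43 ± 0.0285 to 100 kb, 1.35 ± 0.0201 to 500 kb and 1.59 ± 0.0829 beyond. The corresponding values of other promoters were 0.932, 1.23, 1.33, 1.58 and 1.97. Between the groups only the range from 50 to 100 kb had the higher value at Rik and Gm promoters. The lncRNA promoters stood at 1.90 ± 0.0177 over 667 fragments and the coding ones at 1.16 ± 0.00701. The former had 778 events, and the latter 9118, of which 1700017B05Rik held 1162 and 2810417H13Rik 1036. Several lncRNA viewpoints overlapped another annotated gene, and those of E130317F20Rik and 4933431E20Rik held the starts of Ptbp1 and Gstm5. Whether the difference belongs to the lncRNA genes themselves was not tested. The SDs of these ratios cover the spread between library a and the average of b and c. They leave out the spread between b and c and that between viewpoints. Summing gave deep viewpoints the most weight, and with every viewpoint weighted equally the ratio was 1.65 for Rik and Gm promoters and 1.98 for the others.

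The highest such ratio of any Rik or Gm viewpoint was that of 1190002N15Rik, with 22 events at 4 fragments. It was 5.47 in library a, 2.84 in b and 9.63 in c. By annotation of the contacted fragment, events of Rik and Gm promoters stood at 0.905 ± 0.00595 times the expectation between genes, 0.978 ± 0.00400 in introns, 1.20 ± 0.00497 in exons and 1.42 ± 0.00210 at starts of coding genes. Other single-gene promoters had 0.898, 0.974, 1.23 and 1.48. The order of the 4 classes was the same for both. Within each group the classes differed by more than the SD between library a and the average of b and c.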

How the data were processed

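Nuclear-titrated Capture-C contacts of 3 libraries were analysed with the viewpoint list. The authors trimmed reads with Trim Galore and aligned them with Bowtie to mm9 (submitters' processing notes, versions not given in the sources used here), and removed PCR duplicates and scaled counts with the CCseqBasic and CaptureCompare programs (methods). The deposited signal is reporters of a viewpoint scaled to a constant sum of cis reporters per viewpoint and library. Counts were recovered by setting the lowest value of a viewpoint in a library to 1 event, and 100% of values were whole at a tolerance of 0.01. The planned unit was a signal, and count tests were used instead. Aligned reads were not used here, so reads placed at the wrong copy could not be removed.

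Viewpoints with at least 1000 cis events were tested at fragments from 2.5 kb to 1 Mb. The expected count scaled the mean of the distance bin (of 50) to the viewpoint's events in range. A negative binomial upper-tail test with dispersion per bin by moments had its p-values adjusted over all pairs (Benjamini-Hochberg). For fragments this dispersion had a median of 0.972 and reached 1419, so adjusted p-values at different distances are not directly comparable. Without the top 0.1% of counts its highest value was 1.10. For bins of 5 kb, counts in the top 0.1% were left out of the dispersion. The peaky program, which the authors used, was not run. The scripts were checked on simulated counts with the same dispersion at all distances. The dispersion of the data varied with distance, so that check does not cover calls at high dispersion. Identical words of 30 bases were searched on both strands of mm9. Names came from RefSeq and GENCODE tables. Shares cover counting error only, and no chance test was made between Rik or Gm and other viewpoints.

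The members and lists were chosen with earlier results of these data known. Named were the promoters with a called fragment (1 result is not reported here), those with the most called bins, and the extremes of depth, length, local share and sidedness. Alternatives concerned the dispersion, thresholds, distance ranges, word length, weighting and each library left out. Python 3.11.15 was used with numpy 2.4.6, scipy 1.17.1, pandas 2.3.3, numba 0.67.0, Biopython 1.88 and matplotlib 3.10.9.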

Additional observations from a re-analysis of the deposited data

How the results depend on the processing

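No paired analysis was possible because there was only 1 group. The ratio of median depths (1.08) was 1.05 with at least 1000 events, 1.05 without chromosome 9 from 50 to 100 Mb, and 1.04 to 1.08 with a library left out. The difference in local share (-0.281 percentage points) was -3.39 with events pooled, -2.31 at 5000 or more events, and -0.525 to -0.0514 with a library left out. The upstream share (50.7%) was 50.1% to 100 kb, 52.0% at 5000 or more events, and 50.2% to 51.4% with a library left out. The squared correlation between libraries (0.347) was 0.838 in 5 kb bins, 0.438 at 5000 or more events, and 0.312 to 0.416 with a library left out. Called fragments (25) numbered 65 without the top counts in the dispersion, 3556 with Poisson counts, 16 without pairs sharing 30 bases, and 20 to 21 with a library left out. The 25 and the 16 each stood at 10 promoters. Called 5 kb bins (63) numbered 25 with all counts in the dispersion, 26 at an adjusted p under 0.01, and 36 to 51 with a library left out. The ratio beside other promoters (1.19 in the sum) was 0.979 at 1 place, 1.26 at 1 to 3 places and 1.65 with viewpoints weighted equally. Promoters sharing sequence nearby (27) numbered 15 with 50-base and 47 with 20-base words. The causes were not tested. Library a held the fewest events, and since b and c counted as 1 sample, each SD rests on 2 values.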
